A study of Homo sapiens with 12 samples.

Results

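The 10 genes described here are DDIT4 and 9 other regulators or components of the mTOR complexes: SESN2, SESN3, DEPTOR, AKT1S1, RPTOR, RICTOR, TSC1, TSC2 and RHEB. They were found by symbol among the 60612 genes of the deposited count table, and 9 of the 10 passed the filter on low counts that left 17779 genes to test, the exception being SESN3. DDIT4 was chosen by its measured level, which is low at 30 min against 0 min in these same libraries, so its values are given as a description with no test. The other 9 genes were named for their roles, with earlier results of these data known. The table holds RNA sequencing of HepG2 cells, a human line derived from a liver tumour with many features of hepatocytes, exposed in culture to 0.001 µM 2,4-D, a synthetic auxin used as a herbicide. Cells were taken after 10, 30 and 360 min of exposure and at 0 min, which is labelled untreated, with 3 libraries in each of the 4 groups. No untreated library taken at 10, 30 or 360 min is used here, so exposure and elapsed time cannot be told apart. The labels call the libraries triplicates and do not say whether they came from separate cultures, so the tests measure the spread between these libraries, which may be technical.

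mTOR is a protein kinase that promotes protein synthesis and cell growth when nutrients, oxygen and growth factors are plentiful. It works in mTORC1, which is built around RPTOR and is switched on at the lysosome by the small GTPase RHEB, and in mTORC2, which is built around RICTOR. TSC1 and TSC2 form a complex that turns RHEB off, and DDIT4, also called REDD1, is a stress-induced protein with a short-lived mRNA that acts through this complex to restrain mTORC1. The sestrins restrain mTORC1 by the separate amino acid branch, SESN2 being a leucine sensor.

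DDIT4 was the gene of the 10 whose level differed most between times, and its promoter is shown for that reason, with the motifs of factors known to induce stress genes. SESN2, the member whose levels were most like those of DDIT4 over the libraries, is shown beside it for comparison. Both sequences are from RefSeq on GRCh38.p14 and run 5′ to 3′ on the + strand over 300 bases, with 250 before the gene's start and 50 after it. Capitals mark ACGTG, the core of the hypoxia response element, and CCAAT boxes, which read ATTGG here because they lie on the other strand. The DDIT4 promoter is chr10:72273674-72273973 and the SESN2 promoter is chr1:28259268-28259567.
DDIT4: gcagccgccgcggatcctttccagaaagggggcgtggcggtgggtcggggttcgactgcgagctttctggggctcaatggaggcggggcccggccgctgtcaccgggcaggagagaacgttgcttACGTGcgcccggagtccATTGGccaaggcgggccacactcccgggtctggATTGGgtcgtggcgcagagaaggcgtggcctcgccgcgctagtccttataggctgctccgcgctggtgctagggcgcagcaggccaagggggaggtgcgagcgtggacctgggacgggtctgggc
SESN2: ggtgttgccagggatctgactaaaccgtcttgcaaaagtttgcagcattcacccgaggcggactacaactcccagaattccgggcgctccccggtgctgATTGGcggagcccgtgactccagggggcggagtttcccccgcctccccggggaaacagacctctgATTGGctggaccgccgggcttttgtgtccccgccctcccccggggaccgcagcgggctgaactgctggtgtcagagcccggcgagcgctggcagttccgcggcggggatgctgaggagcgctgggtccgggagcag
The DDIT4 promoter held ACGTG at position -125 from the gene's start and CCAAT boxes at -108 and -75. The SESN2 promoter held CCAAT boxes at -151 and -86 and no ACGTG. Both strands were searched in 35116 RefSeq promoters of this length. The 8 members with an entry had 9 of these promoters, TSC2 having more than 1. ACGTG was present in 21.4% of all promoters and in 4 of those 9, of DDIT4, RICTOR, RHEB and TSC2. CCAAT was present in 34.6% of all promoters and in 4 of the 9 member promoters, of DDIT4, SESN2, RICTOR and RHEB. Of the other motifs searched, the E-box CACGTG, which contains ACGTG, was in 7.26% of all promoters, the cAMP response element TGACGTCA in 1.85%, the composite element TGATGNAA of C/EBP and ATF factors in 3.62%, the TATA box TATAAA in 11.5% and the GC box GGGCGG in 45.0%. None of these 5 was in the DDIT4 window, and the SESN2 window held the GC box at -127 and -57. Of the 9 member promoters, 6 held the GC box, in 5 members. The E-box and the composite element were each in 1, both of TSC2, and the TATA box was in 1, that of RPTOR. The cAMP response element was in 0. The ACGTG of TSC2 lay within that E-box, at -114. These matches describe letters in a window and not binding.

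The libraries held 29766148 to 83539763 counts assigned to genes. Levels are given as CPM, a gene's counts relative to the total of its library, with totals scaled by trimmed means of log ratios between libraries (TMM). Mitochondrially encoded genes took 2.517% to 4.389% of the counts, a share that was higher in 0 min replicate 1, all 10 min libraries, 30 min replicates 2 and 3 and 360 min replicate 3 than in the other 5. The 9 hepatocyte markers, among them ALB, AFP and APOB, summed to 31500 to 32000 CPM at 10 min, 30500 to 30800 at 30 min and 31800 to 32900 at 360 min, against 28400 to 30900 at 0 min. The 9 markers of blood, fibroblasts and endothelium summed to 54.8 to 66.5 CPM at 10 min, 55.8 to 59.6 at 30 min and 53.2 to 57.7 at 360 min, against 50.1 to 57.6 at 0 min, of which CD68 alone gave 48.6 to 64.6 over the libraries. PTPRC and DCN, markers of leukocytes and fibroblasts, had 0 counts in all 12 libraries. Of the endothelial markers, PECAM1 had 0.957 to 1.75 CPM, and VWF and CDH5 reached 0.225 and 0.33. The fibroblast markers COL1A1, COL3A1 and LUM reached 0.161, 0.0643 and 0.0559 CPM. In bulk RNA, fewer cells expressing a gene and less RNA per cell cannot be told apart.

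A gene was called when its adjusted p was under 0.05 in edgeR's quasi-likelihood test, with Benjamini-Hochberg adjustment over the 17779 genes. Of the 8 tested members other than DDIT4, none was called at 10 min against 0 min, where 0.0169% of all tested genes were, and none at 30 min against 0 min, where 0.765% were. AKT1S1 was the 1 of 8 called at 360 min against 0 min, where 18.1% of all genes were called. None was called at 30 min against 10 min, with a background of 0.574%, and 2 of 8, SESN2 and TSC1, were called higher at 360 min against 30 min, with a background of 22.7%. Those shares are near the background or too small a count to stand apart from it, so the counts are no result about these genes as a group. At an unadjusted p under 0.05, edgeR passed 0 of the 8 at 10 min and 3 at 30 min against 0 min, and 2 at 30 min against 10 min. DESeq2 called SESN2 at 30 min against both earlier times, limma voom called it at 30 min against 0 min, and both called 0 of the 8 at 10 min against 0 min. Over all 17779 genes, the unadjusted threshold was passed by 1941 at 10 min and 1652 at 30 min against 0 min, and by 2123 at 30 min against 10 min. The libraries of both groups did not overlap for 3 of the 8 members at 30 min against 0 min, where this held for 14.5% of all tested genes. The same was true of 4 of 8 at 360 min against 0 min, beside 35.6% of all genes, and of 4 of 8 at 360 min against 30 min, beside 39.8%. Against 0 min, the 8 members had median log2 fold changes of 0.00 at 10 min, -0.03 at 30 min and 0.08 at 360 min, and all tested genes had medians of -0.003, 0.003 and 0.00 at these times.

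DDIT4 lies at chr10:72273920-72276036 on the + strand (GENCODE 29, GRCh38). Its level was 139, 143 and 153 CPM in the libraries at 0 min, 150, 131 and 154 at 10 min, 59.8, 57.4 and 53.5 at 30 min, then 223, 213 and 210 at 360 min. The 30 min libraries all lay under every other library and the 360 min libraries all lay over them, while the 10 min libraries overlapped those at 0 min. The group means were 145 ± 7.0 CPM at 0 min, 145 ± 13 at 10 min, 56.9 ± 3.2 at 30 min and 215 ± 7.1 at 360 min (SD, n = 3 each). At 10 min against 0 min the log2 fold change was -0.00, with a 95% interval of -0.13 to 0.13. At 30 min the level was 0.39 times that at 0 min, a log2 fold change of -1.35 ± 0.06 (SE). Set against 10 min, the 30 min value was again -1.35. At 360 min it was 1.48 times that at 0 min, a log2 fold change of 0.57 ± 0.06, and 3.78 times that at 30 min, a log2 fold change of 1.92 ± 0.06. The low level was thus present at 30 min and not at 10 min, and the level at 360 min was above the starting one.

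DDIT4 was chosen for its low level at 30 min, so its place among other genes describes these values and does not test them. Among the 12437 tested genes whose mean log2 CPM reached 1, 12 had a lower log2 fold change than DDIT4 at 30 min against 0 min, and 2 had a higher one at 360 min against 30 min. At 360 min against 0 min, 83 of them had a higher value. Among all 17779 tested genes, the corresponding numbers were 53, 19 and 542. The counts behind the DDIT4 levels ran from 1914 to 15324 per library. With the mitochondrial share as a covariate, the log2 fold changes of DDIT4 were 0.028 at 10 min, -1.327 at 30 min and 0.56 at 360 min, each against 0 min.

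**Figure D1:**
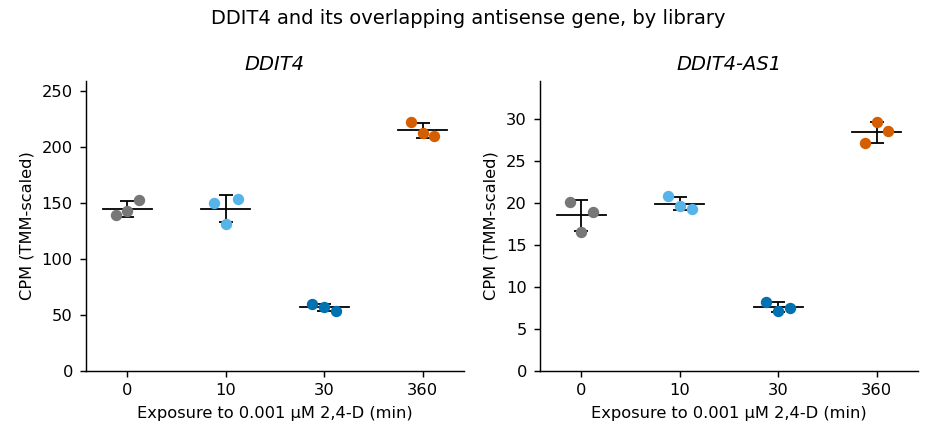
Levels of DDIT4 and of the antisense gene DDIT4-AS1 in each library (points, TMM-scaled CPM) at 0, 10, 30 and 360 min of exposure, with the group mean and SD (bars, n = 3 each). The 30 min libraries of DDIT4 lie between 53.5 and 59.8 CPM and the 360 min libraries between 210 and 223, and both groups lie apart from the libraries at 0 and 10 min.

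DDIT4-AS1, an antisense gene of unknown role, is annotated by GENCODE at chr10:72274915-72275980 on the minus strand, and all 847 of its exon bases lie inside exons of DDIT4. Whether the counting used strand is not given in the sources used here, so reads of the 2 genes cannot be told apart with certainty. Its level was 20.1, 16.5 and 18.9 CPM at 0 min, 20.8, 19.6 and 19.3 at 10 min, 8.24, 7.09 and 7.47 at 30 min, then 27.1, 29.6 and 28.5 at 360 min. Its 30 min libraries were the lowest 3 and its 360 min libraries the highest 3 of the 12, with log2 fold changes of -1.28 ± 0.08 at 30 min and 0.62 ± 0.08 at 360 min against 0 min (SE). Its counts were 11.5% to 15.0% of the DDIT4 counts in every library. DDIT4L, the paralogue of DDIT4 with the same action on mTORC1, had 0 counts in all 12 libraries.

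The sestrins are stress-induced proteins that hold back mTORC1. SESN2, at chr1:28259527-28282491, had 28.6, 30.3 and 30.0 CPM at 0 min, 29, 30.9 and 29.4 at 10 min, 23.8, 26.7 and 25.6 at 30 min, then 30.7, 32 and 31.5 at 360 min. The 30 min libraries were the lowest 3 of the 12 and the 360 min libraries lay above those at 0 min. SESN2 averaged 25.3 ± 1.5 CPM at 30 min against 29.6 ± 0.94 at 0 min (SD, n = 3 each), a log2 fold change of -0.23 ± 0.05 (SE) that missed the threshold in edgeR (adjusted p = 0.0565). Of 16 alternatives, 11 did not call it either, with adjusted p of 0.0527 to 0.535. The 5 that did included DESeq2 (adjusted p = 0.012), limma voom (0.0421), a stricter filter (0.0427) and the fit without 0 min replicate 1 (0.0481). At 360 min SESN2 rose to 31.4 ± 0.67 CPM, against 25.3 ± 1.5 at 30 min, a log2 fold change of 0.31 ± 0.05 (edgeR, adjusted p = 0.000641). That call was kept under all 15 alternatives, with adjusted p of up to 0.0047. Against 0 min, the 360 min value of SESN2 was 0.08 ± 0.05 and was not called (edgeR, adjusted p = 0.296).

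SESN3, whose gene is at chr11:95165513-95232541, had 0 to 15 counts per library and was listed at 0 counts in 30 min replicate 3 and 360 min replicate 2, where 3 counts correspond to 0.0844 and 0.0897 CPM. Its highest library stood at 0.217 CPM, so differences between times were not detectable at this depth. The third sestrin, SESN1, a target of p53, is not among the 10 genes. It averaged 42.0 ± 2.2 CPM at 360 min against 35.1 ± 0.95 at 0 min and rose by 0.26 ± 0.07 on the log2 scale (edgeR, adjusted p = 0.0156). The call on SESN1 was lost without 0 min replicate 1 (adjusted p = 0.0552), 0 min replicate 2 (0.0504) or 360 min replicate 2 (0.0782).

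TSC1, the scaffold of the TSC complex, is at chr9:132891348-132946874. It had 55.9, 54.3 and 54.3 CPM at 0 min, 55.8, 53.9 and 54.1 at 10 min, 54.3, 51.9 and 52.6 at 30 min, then 57.1, 59.6 and 58.7 at 360 min. The 360 min libraries lay above all others. TSC1 rose by 0.14 ± 0.03 on the log2 scale at 360 min against 30 min (edgeR, adjusted p = 0.00744), a call kept under all 15 alternatives with adjusted p of up to 0.0445. Against 0 min the value was 0.09 ± 0.03 and did not pass (edgeR, adjusted p = 0.0712).

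TSC2, the subunit with the activity that turns RHEB off, had 65.4, 60.0 and 60.9 CPM at 0 min, 66.7, 61.8 and 61.8 at 10 min, 59.1, 56.1 and 59.5 at 30 min, then 61.0, 62.7 and 62.3 at 360 min. The 30 min libraries were the lowest, but the log2 fold change of -0.09 ± 0.04 against 0 min was not called (edgeR, adjusted p = 0.533). The gene's exons share 778 bases with PKD1 and 402 with NTHL1 on the opposite strand. PKD1, which has near-identical pseudogene copies that make its counts uncertain, fell by 0.17 and NTHL1 by 0.15 on the log2 scale at 360 min against 0 min (edgeR, adjusted p = 0.0333 and 0.0138), and their part in the TSC2 values was not tested. TBC1D7, the third subunit of the complex, averaged 17.4 ± 0.66 CPM at 360 min against 19.5 ± 1.8 at 0 min and was not called (edgeR, adjusted p = 0.0979).

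RHEB, the activator of mTORC1, had 42.8, 42.2 and 42.8 CPM at 0 min, 36.0, 42.3 and 41.0 at 10 min, 42.3, 42.6 and 42.8 at 30 min, then 43.9, 44.5 and 42.3 at 360 min. Its only low library was 10 min replicate 1, and its groups overlapped in every comparison. The 95% intervals of its log2 fold changes were -0.21 to 0.01 at 10 min, -0.11 to 0.11 at 30 min and -0.07 to 0.14 at 360 min, each against 0 min.

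RPTOR, the defining subunit of mTORC1, was the steadiest of the tested members between groups. It had 110, 121 and 116 CPM at 0 min, 124, 113 and 110 at 10 min, 116, 113 and 116 at 30 min, then 111, 115 and 118 at 360 min. The highest of its group means was 1.01 times the lowest. The 95% interval of the log2 fold change at 360 min against 0 min was -0.11 to 0.09.

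RICTOR, the defining subunit of mTORC2, had 31.3, 31.2 and 30.9 CPM at 0 min, 30.5, 34.1 and 32.1 at 10 min, 33.3, 35.4 and 33.7 at 30 min, then 32.6, 34.2 and 33.3 at 360 min. The 30 and 360 min libraries lay above those at 0 min, with log2 fold changes of 0.13 ± 0.04 and 0.10 ± 0.04, neither of which was called (edgeR, adjusted p = 0.327 and 0.16). RICTOR shares 229 exon bases with OSMR on the opposite strand, which fell by 0.25 on the log2 scale at 360 min against 0 min (edgeR, adjusted p = 0.000529), and its part in the RICTOR values was not tested.

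AKT1S1 encodes PRAS40, an inhibitory subunit of mTORC1 that AKT phosphorylates, and lies at chr19:49869033-49878459. It had 54.4, 48.7 and 48.3 CPM at 0 min, 49.9, 53.2 and 54.0 at 10 min, 49.6, 54.3 and 56.1 at 30 min, then 58.1, 56.4 and 64.8 at 360 min. The 360 min libraries were the 3 highest, though 0 min replicate 1 came within the range of the 10 and 30 min libraries. AKT1S1 averaged 59.8 ± 4.4 CPM at 360 min against 50.5 ± 3.4 at 0 min (SD, n = 3 each) and rose by 0.25 ± 0.06 on the log2 scale (edgeR, adjusted p = 0.017). The call was lost without 0 min replicate 2 (adjusted p = 0.068), 0 min replicate 3 (0.0697) or 360 min replicate 3 (0.074). The mitochondrial share was also highest at 0 min in replicate 1 and at 360 min in replicate 3, the highest AKT1S1 library of each group, and with that share as a covariate the log2 fold change was 0.262 (edgeR, adjusted p = 0.000376). Its exons share 392 bases with TBC1D17 on the opposite strand, whose log2 fold change of 0.12 in the same comparison was not called (edgeR, adjusted p = 0.176).

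DEPTOR, an inhibitor that binds mTOR in both complexes, was near 1 CPM in all groups. It had 1.04, 0.925 and 0.95 CPM at 0 min, 0.852, 0.826 and 1.19 at 10 min, 0.567, 0.855 and 0.979 at 30 min, then 0.889, 1.04 and 1.15 at 360 min, from 25 to 72 counts per library. All groups overlapped. At this depth the interval at 30 min against 0 min ran from -0.78 to 0.17 on the log2 scale, so a difference of the size seen for SESN2 was not detectable. The subunits shared by both complexes were not called at any time against 0 min either. The kinase MTOR averaged 342 ± 8.2 CPM at 360 min against 347 ± 7.7 at 0 min, and MLST8, which stabilises the kinase, averaged 54.0 ± 3.6 against 53.7 ± 0.98 (SD, n = 3 each).

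**Figure D2:**
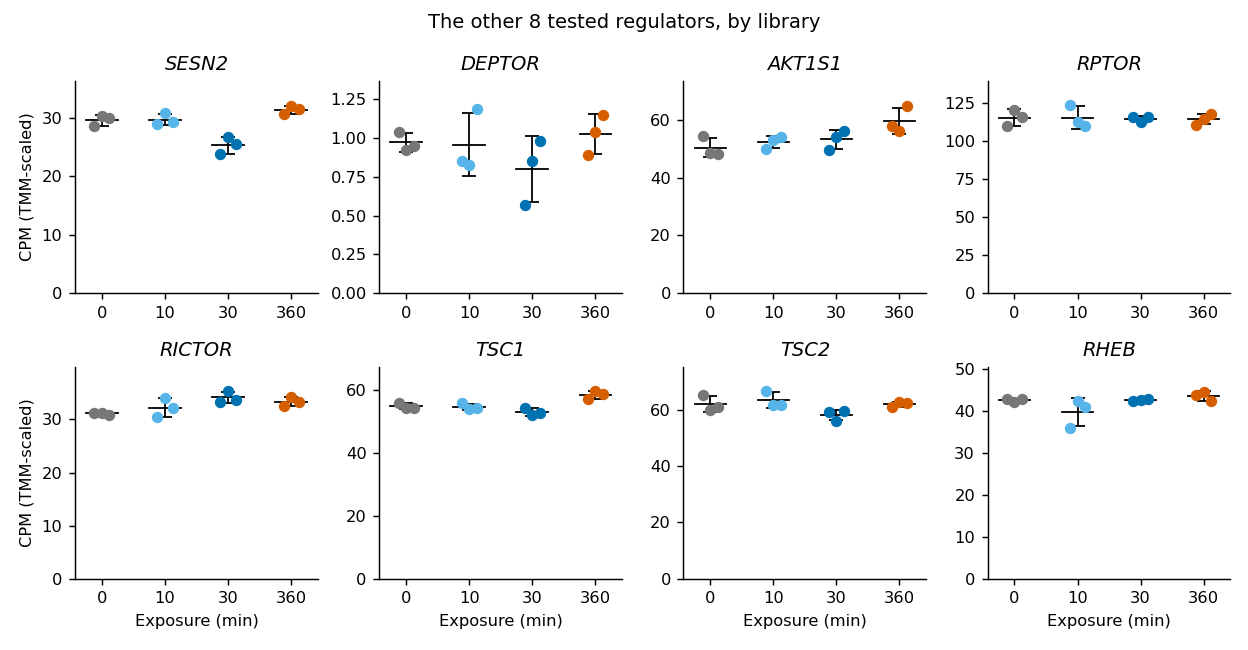
Levels of the 8 tested members other than DDIT4 in each library (points, TMM-scaled CPM, axes from 0) at 0, 10, 30 and 360 min, with group mean and SD (bars, n = 3 each). SESN2 is lowest at 30 min (23.8 to 26.7 CPM), AKT1S1 and TSC1 are highest at 360 min, and RPTOR stays at group means of 115 to 116 CPM.

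**Figure D3:**
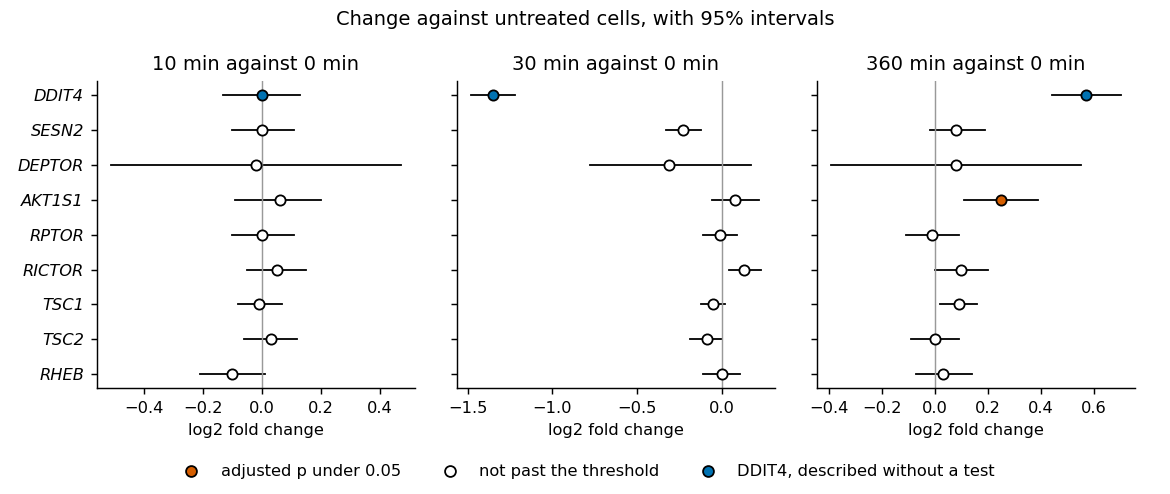
Log2 fold change at 10, 30 and 360 min against 0 min for the 9 tested members, with 95% intervals from the fit over 12 libraries (horizontal bars), each panel on its own horizontal scale. DDIT4, drawn as described without a test, lies at -1.35 at 30 min and 0.57 at 360 min, and AKT1S1 at 360 min (0.25) is the only tested point drawn as past the threshold.

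Levels of different genes were compared per kilobase of the longest annotated transcript. At 0 min DDIT4 led with 83.0 ± 4.0 CPM per kb, followed by RHEB with 20.5 ± 0.17, RPTOR with 18.0 ± 0.90 and AKT1S1 with 13.9 ± 0.93 (SD, n = 3 each). TSC2 with 9.79, SESN2 with 8.59, TSC1 with 6.29 and RICTOR with 3.27 came next, and DEPTOR with 0.379 and SESN3 with 0.0106 came last. DDIT4 remained first at 30 min, at 32.6 ± 1.8 CPM per kb, and stood at 123 ± 4.1 at 360 min. No neighbours in the order overlapped over libraries at 0 min or 30 min. RHEB and RPTOR overlapped at 10 min, as did RPTOR and AKT1S1 at 360 min. With the union of all exons as the length, SESN2 came before TSC2 at 0 min, with 8.59 and 3.17 CPM per kb, and AKT1S1 overlapped with SESN2 and TSC2 with TSC1.

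**Figure D4:**
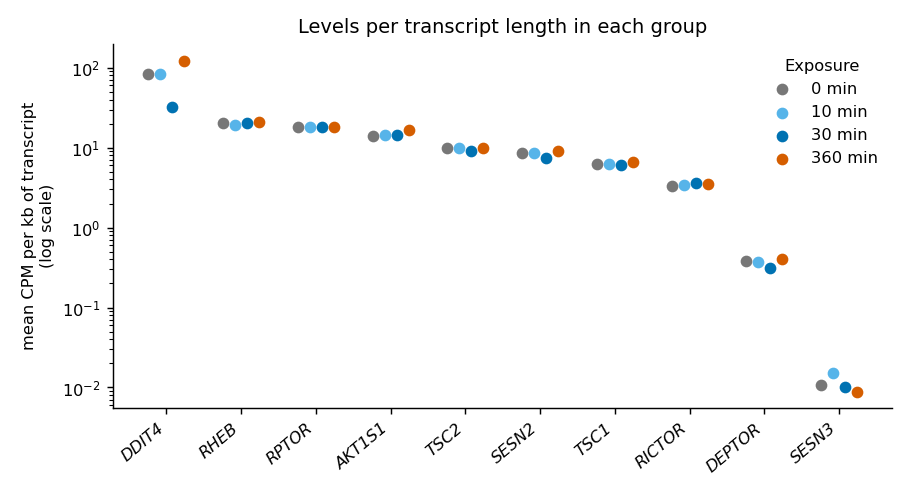
Mean level of each member per kb of its longest transcript (TMM-scaled CPM per kb, log axis) at 0, 10, 30 and 360 min, with genes in the order of their level at 0 min. DDIT4 is first in every group, at 83.0 CPM per kb at 0 min and 32.6 at 30 min, and SESN3 is last.

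The genes whose levels followed DDIT4 most closely were ranked by Pearson's r of log2 CPM over the 12 libraries, among the 12436 other tested genes whose mean log2 CPM reached 1. The libraries share their groups, so r mostly follows the group means, and it is given as a description. DDIT4-AS1 came first with 0.987. TMEM39A with 0.98, DCAF1, a substrate receptor of a ubiquitin ligase, with 0.98, GDF15, a stress-induced secreted factor, with 0.975, and BCL6, a transcriptional repressor, with 0.971 came next. They were followed by BHLHE40, a hypoxia-inducible repressor of the circadian clock, with 0.956, TOB2, an antiproliferative factor, with 0.954, EPHA2, an ephrin receptor, with 0.951, CITED2, which limits the action of hypoxia-inducible factors, with 0.949, and RC3H2, which promotes mRNA decay, with 0.942. BHLHE40 had the lowest log2 fold change of the 10 at 30 min against 0 min, -1.66, with means of 17.1 CPM at 30 min and 54.2 at 0 min. CITED2 followed DDIT4-AS1 with -0.94, and GDF15 had -0.62, while the rest lay between -0.43 and -0.16. At 360 min against 0 min, DDIT4-AS1 had 0.62 and the others 0.04 to 0.22, so none of the others matched the size of the DDIT4 change. All exon bases of DDIT4-AS1 lie inside exons of DDIT4 and strand use is not given. Its likeness to DDIT4 may thus come from shared reads, which was not tested. With any 1 library left out, 6 to 10 of the 10 genes were again among the 10 most alike. Of the members, SESN2 had r of 0.91, at place 38, TSC1 0.79, TSC2 0.62, AKT1S1 0.29, RPTOR 0.03, RHEB 0.01 and RICTOR -0.40.

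**Figure D5:**
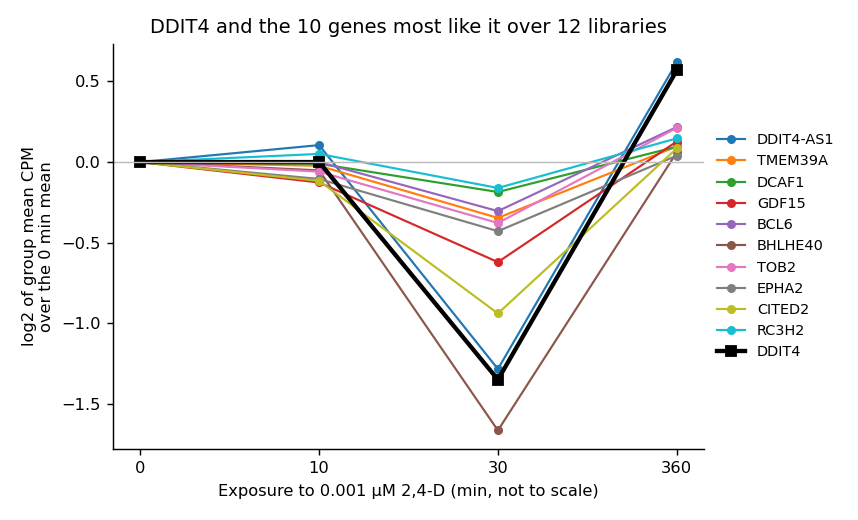
Log2 of each group's mean CPM over the mean at 0 min for DDIT4 (black squares) and the 10 genes most like it over 12 libraries (coloured circles), at 0, 10, 30 and 360 min, with times evenly spaced and not to scale. All 11 lines are lowest at 30 min, BHLHE40 at -1.66 and DDIT4 at -1.35, and DDIT4 and DDIT4-AS1 end highest, at 0.57 and 0.62. Reads of DDIT4 and DDIT4-AS1 cannot be told apart with certainty.

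Further genes of the pathway were taken from lists of known components, and no list was tested as a set. Over all tested genes, edgeR called 0.0169% at 10 min, 0.765% at 30 min and 18.1% at 360 min, each against 0 min. The counts in this list and in those below are to be read beside these shares. In the amino acid branch, which reports nutrient supply to mTORC1 through the Rag GTPases, 0 of 31 tested genes were called at 10 or 30 min against 0 min, and 6 were higher and 2 lower at 360 min. RRAGC, a Rag GTPase, rose to 18.8 CPM at 360 min against 15.0 at 0 min (log2 fold change 0.33, edgeR adjusted p = 0.00844), and FNIP1, a partner of folliculin, to 27.9 against 23.0 (0.28, adjusted p = 0.00542). WDR59, a subunit of GATOR2, fell to 117 CPM at 360 min against 134 at 0 min (log2 fold change -0.19, edgeR adjusted p = 0.00584). CASTOR2, an arginine sensor paralogue with near-identical copies in the genome, so that its counts are uncertain, stood at 12.8 CPM at 360 min against 19.2 at 0 min (log2 fold change -0.58, edgeR adjusted p = 0.000336). The median log2 fold change of the 31 genes was 0.01 at 360 min. At an unadjusted p under 0.05, 2 passed at 10 min and 2 at 30 min in edgeR. DESeq2 and limma voom called 0 at 10 min and 1 at 30 min, and edgeR called 1 at 30 min without 0 min replicate 1. At 360 min, leaving out 0 min replicate 2 or 360 min replicate 2 took the calls to 5.

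At 360 min against 0 min, 18.1% of all tested genes were called. Among 11 tested subunits and assembly factors of the mTOR complexes, 1 was higher in that comparison, AKT1S1, and 1 lower. The lower gene was TTI1, a factor needed for the stability of mTOR, which fell to 67.2 CPM at 360 min against 77.3 at 0 min (log2 fold change -0.20, edgeR adjusted p = 0.00356). Without 0 min replicate 2 or 360 min replicate 3, 1 of the 11 was called. None of the 5 genes of the TSC complex and RHEB list was called against 0 min at any time by edgeR, DESeq2 or limma voom, with 0 at 10 min, 1 at 30 min and 3 at 360 min under an unadjusted p of 0.05 in edgeR. At 360 min edgeR called 1 of them without 0 min replicate 1 or 360 min replicate 2. Of 24 upstream genes of the insulin, PI3K, AKT and AMPK branches, none was called at 10 or 30 min and 1 at 360 min by edgeR, DESeq2 or limma voom, with 5 at 10 min and 2 at 30 min under an unadjusted p of 0.05 in edgeR. Without 0 min replicate 1, edgeR called 1 at 10 min and 2 at 360 min, and without 360 min replicate 3 it called 2 at 360 min. The gene called at 360 min was IGF1R, a growth factor receptor, which fell to 110 CPM at 360 min against 135 at 0 min (log2 fold change -0.30, edgeR adjusted p = 0.000608).

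Of 20 substrates and outputs of mTORC1, 0 were called at 10 or 30 min, and at 360 min against 0 min 6 were higher and 3 lower. In the latter comparison 18.1% of all tested genes were called. At an unadjusted p under 0.05, edgeR passed 2 at 10 min and 3 at 30 min, where DESeq2 called 1 and 0 and limma voom 0 and 0. The 20 genes had a median log2 fold change of 0.06 at 360 min against 0 min. EIF4EBP2, a repressor of translation that mTORC1 inactivates, rose to 152 CPM at 360 min against 132 at 0 min (0.20, edgeR adjusted p = 0.00176). LPIN1, a phosphatase of lipid synthesis, rose to 29.1 CPM against 23.0 (0.34, edgeR adjusted p = 0.00416). RPS6KB1, the S6 kinase, rose to 59.9 ± 0.63 CPM at 360 min against 53.5 ± 0.31 at 0 min (0.16, edgeR adjusted p = 0.00677). GRB10, an adaptor that damps insulin signalling, fell to 7.17 CPM at 360 min against 9.85 (-0.46, edgeR adjusted p = 0.00503), and EEF2K, the kinase of elongation factor 2, to 60.9 against 68.1 (-0.16, adjusted p = 0.00539). EIF4EBP1 was not called against 0 min, with 48.8 ± 1.8 CPM at 360 min and 51.4 ± 0.89 at 0 min (edgeR, adjusted p = 0.26).

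Of 9 tested genes known as inducers or partners of DDIT4, without DDIT4 and its antisense gene, TXNIP was the only one edgeR called at 10 and 30 min. TXNIP, a glucose-responsive arrestin that forms a complex with DDIT4, had 79.0 CPM at 10 min and 83.7 at 30 min, against 57.0 at 0 min, with log2 fold changes of 0.47 and 0.56 (edgeR, adjusted p = 0.00528 and 9.69e-05). At 360 min it fell to 43.4 CPM, against 57.0 at 0 min (-0.39, edgeR adjusted p = 0.000143). EPAS1, which encodes HIF-2α, fell to 262 CPM at 360 min against 323 at 0 min (-0.31, edgeR adjusted p = 4.91e-05). DDIT3, the stress factor CHOP, rose to 8.85 CPM at 360 min against 6.05 (0.55, edgeR adjusted p = 0.0338), a call lost without 0 min replicate 1 (adjusted p = 0.106), 0 min replicate 2 (0.11), 360 min replicate 2 (0.0925) or 360 min replicate 3 (0.131).

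Among 16 tested targets of the hypoxia-inducible factors other than DDIT4, none was called at 10 min against 0 min. Their median log2 fold change was 0.27, where that of all tested genes was -0.003. DESeq2 called 7 of the 16 targets, limma voom 0 and edgeR without 10 min replicate 2 called 3, and 11 passed an unadjusted p of 0.05 in edgeR. At 30 min against 0 min 4 were lower, where 0.765% of all tested genes were called. At 30 min against 10 min 9 were lower, where 0.574% of all tested genes were called, and this count of 9 was not repeated under the alternatives. ADM, a vasodilator peptide, had 12.0, 11.5 and 9.65 CPM at 30 min, against 19.3, 22.6 and 24.2 at 0 min. It fell by 0.99 ± 0.09 on the log2 scale (SE; edgeR, adjusted p = 0.000198). VEGFA, the angiogenic growth factor, had 142, 137 and 131 CPM at 30 min, against 192, 179 and 185 at 0 min. It fell by 0.44 ± 0.06 (edgeR, adjusted p = 0.00235). The calls on ANKRD37 and PFKFB3 at 30 min (log2 fold changes of -0.89 and -0.64, edgeR adjusted p = 0.0277 and 0.041) were lost when any 1 library of either group was left out, with adjusted p of 0.0514 to 0.13 and 0.0622 to 0.173, which left 2 genes called in the list. At 360 min against 0 min, where 18.1% of all tested genes were called, 2 of the 16 were higher and 5 lower. Without 0 min replicate 1, 360 min replicate 2 or 360 min replicate 3, 4 in all were called. SLC2A1, the glucose transporter GLUT1, fell to 410 CPM against 580 (-0.50, edgeR adjusted p = 1.75e-06), ANGPTL4, a lipase inhibitor, to 1.08 against 3.03 (-1.51, adjusted p = 0.00057), and MXI1, an antagonist of MYC, to 16.8 against 20.9 (-0.32, adjusted p = 0.00147). ADM was still 0.45 lower (edgeR, adjusted p = 0.00476), where DDIT4 was 0.57 higher.

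ATF4 is the transcription factor of amino acid and endoplasmic reticulum stress. Of its 13 tested targets, 0 were called at 10 or 30 min against 0 min, and 5 were higher and 4 lower at 360 min. The shares of all tested genes called were 0.0169%, 0.765% and 18.1% at these times. At an unadjusted p under 0.05, edgeR passed 3 at 10 min and 2 at 30 min. DESeq2 called 1 at 10 min and 1 at 30 min, and limma voom called 0 and 2. Without 0 min replicate 1, edgeR called 1 at 30 min, and without 360 min replicate 3 it called 5 at 360 min. ATF5 rose to 30.1 CPM at 360 min against 22.8 at 0 min (0.40, edgeR adjusted p = 0.000444) and SLC7A11, the cystine transporter, to 31.0 against 23.6 (0.39, adjusted p = 0.000511). ATF3 fell to 1.67 CPM against 3.18 (-0.94, edgeR adjusted p = 0.000411), and SLC3A2, the partner chain of amino acid transporters, to 148 against 167 (-0.17, adjusted p = 0.0018).

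The glucocorticoid receptor also induces DDIT4. Of 6 tested targets of this receptor, 1 was higher and 1 lower at 30 min, and 2 were higher and 3 lower at 360 min, each against 0 min. At 10 min against 0 min edgeR called 0 of them, DESeq2 1 and limma voom 0. Over all tested genes, edgeR called 0.0169% at 10 min, 0.765% at 30 min and 18.1% at 360 min. SGK1, a kinase, rose to 76.3 CPM at 30 min against 51.0 at 0 min (0.58, edgeR adjusted p = 0.000101) and fell to 33.9 at 360 min against 51.0 at 0 min (-0.59, adjusted p = 1.21e-05). FKBP5, a receptor chaperone, fell to 89.4 CPM at 360 min against 108 at 0 min (-0.27, edgeR adjusted p = 0.000536), and PER1, a clock gene, rose to 18.7 against 15.1 (0.30, adjusted p = 0.0061). DUSP1, a MAP kinase phosphatase, had 16.9, 48.3 and 60.6 CPM at 0 min and 16.7, 16.5 and 16.6 at 10 min. It had 13.4, 14.6 and 11.7 CPM at 30 min and 8.57, 8.26 and 10.1 at 360 min. The gene was already lower at 10 min against 0 min, though not called (-1.34, edgeR adjusted p = 0.165). At 30 min against 10 min it was not called either (-0.32, edgeR adjusted p = 0.748). Its 30 min call (-1.67, edgeR adjusted p = 0.0265) rested on 0 min replicates 2 and 3 and was lost without replicate 2 (adjusted p = 0.112) or 3 (0.119). It was also lost without any 1 of the 30 min libraries (adjusted p = 0.0938 to 0.133).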

How the data were processed

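The data are 12 HepG2 libraries, 3 at each of 0, 10, 30 and 360 min, grouped from the sample labels. The deposited values are raw counts per gene; alignment with HISAT2 to GRCh38 and the use of DESeq2 are per the submitters' processing notes, with versions, the counting program and strand use not given in the sources used here. RNA was selected on poly(dT) beads, per the labels' protocols. Annotation, lengths and overlaps came from GENCODE 29, which held 58394 of 60612 gene IDs (96.34%).

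Counts were filtered by group (filterByExpr), scaled by TMM (factors 0.981 to 1.014) and fitted in edgeR 4.0.16 (R 4.3.3) with 1 coefficient per group over all 12 libraries (8 residual degrees of freedom). Quasi-likelihood tests were adjusted by Benjamini-Hochberg over 17779 genes, with calls under 0.05. Standard errors are the log2 fold change over the square root of F, and intervals use t quantiles. Log2 CPM used a prior count of 2. Totals of 29766148 to 83539763 counts set the precision, and a floor of 3 counts the detection limit for a gene at 0 counts, both covering counting error only. The procedure was tested on simulated data.

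The members and the gene lists were chosen with earlier results of these data known. Genes named were all members and 8 related genes; up to 4 called genes with the smallest p per list and comparison with 0 min; and the 10 genes most like DDIT4. DDIT4 and DDIT4-AS1 have no p. Alternatives were DESeq2 1.42.0, limma voom 3.58.1, RLE or total-count scaling, other filters (none, or a minimum of 1 CPM in any 3 libraries), the 2 groups alone, a replicate term, the mitochondrial share as covariate, and each library left out. A further alternative, for comparisons against 0 min, kept 0 min replicate 1 as the lone untreated library, without 0 min replicates 2 and 3.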

Additional observations from a re-analysis of the deposited data

Results flagged for a closer look

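The effects at 360 and 30 min, each against 0 min, differed for 4 genes. DDIT4 differed by 1.92 on the log2 scale (360 min minus 30 min), every 360 min library lying above and every 30 min library below those at 0 min; the difference was not tested, because the gene was chosen on these values. DDIT4-AS1, whose exons lie inside those of DDIT4, differed by 1.90 in the same way, and this was not tested either. SESN2 differed by 0.31 (edgeR, adjusted p = 0.000641) and TSC1 by 0.14 (edgeR, adjusted p = 0.00744), both from the test of 360 min against 30 min itself.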

How the results depend on the processing

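DDIT4 kept its direction at 30 and 360 min under every alternative listed, with log2 fold changes of -1.39 to -1.288 at 30 min against 0 min, 0.535 to 0.627 at 360 min against 0 min and 1.872 to 1.953 at 360 min against 30 min. Near 0 at 10 min against 0 min, the DDIT4 value of -0.00 changed sign in 6 alternatives, to 0.001 in DESeq2 and with RLE scaling, 0.028 with the mitochondrial covariate, 0.036 without 0 min replicate 3, 0.065 without 10 min replicate 2 and 0.064 with 0 min replicate 1 as the lone untreated library. Of 624 values of the 8 tested members other than DDIT4 under an alternative, 556 kept their direction and side of the threshold, 54 changed sign, 4 lost a call and 10 gained one. None of the 54 was past the threshold in either setting, and none exceeded 0.074. With that lone library, which is assumed to vary like the others, DDIT4-AS1 gave -0.003 at 10 min and 0.499 at 360 min, in place of 0.11 and 0.62. The counts over gene lists, the named list genes and the genes most like DDIT4 were added to the alternatives after seeing the data.

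The number of genes called at 10 min against 0 min, 3, was 177 in DESeq2, 9 with no filter, 11 with the mitochondrial share as covariate, 7 with the 2 groups alone, 10 with the lone untreated library and 1 to 25 with 1 library left out. At 30 min against 0 min, 136 became 271 in DESeq2, 67 with the 2 groups alone, 52 with the lone untreated library and 61 to 163 with 1 library left out. At 360 min against 0 min, 3215 became 1751 with the lone untreated library. At 30 min against 10 min, 102 became 293 in DESeq2 and 39 to 83 with 1 library left out. The cause was not tested. Members called at 30 min against 0 min were 1 (SESN2) in DESeq2, limma voom, the stricter filter and without 0 min replicate 1, and 0 to 1 with 1 library left out. At 30 min against 10 min, DESeq2 called 1 (SESN2, adjusted p = 0.0122). At 360 min against 0 min, 0 members were called with the lone untreated library (AKT1S1, adjusted p = 0.364), and 0 to 1 with 1 library left out. AKT1S1 at 360 min against 30 min, not called in edgeR (adjusted p = 0.0765), passed in DESeq2 (0.0394), limma voom (0.0468) and with the mitochondrial covariate (0.00115). Calls against 0 min on named genes of the lists were also lost with the lone untreated library. Among them were FNIP1, RRAGC, LPIN1, GRB10, EEF2K, RPS6KB1, PER1 and ADM at 360 min, and TXNIP at 10 min. The log2 fold change of ADM at 360 min was then -0.253, and that of TXNIP at 10 min 0.402. At 30 min against 0 min, ADM gave -1.075 to -0.793 over all 16 alternatives. With the lone untreated library, fewer genes were called at 360 min against 0 min among mTORC1 substrates and outputs, amino acid sensing and ATF4 targets. The same held for hypoxia targets, glucocorticoid targets and mTOR complex subunits.

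The replicate numbers did not pair the samples: over 18 pairs with the same number, the correlation of deviations from the group means was -0.172 to 0.145, 6 pairs exceeded 0.1, and 4 of 12 libraries correlated best with their own number. With a replicate block, 6 genes were called at 10 min against 0 min, 1 member (SESN2, adjusted p = 0.0322) at 30 min against 0 min and 1 (SESN2, 0.0365) at 30 min against 10 min. At 30 min against 0 min the calls on ANKRD37 (adjusted p = 0.0534), DUSP1 (0.057) and PFKFB3 (0.0836) were lost under the block.

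Of the tested members, the values that changed sign were these. RPTOR at 360 min against 30 min gave -0.002 in DESeq2 and with RLE scaling, 0.00 in limma voom, -0.012 with total-count scaling, -0.007 with no filter, -0.001 with the stricter filter, -0.011 with the mitochondrial covariate and -0.004 with the 2 groups alone. RPTOR at 10 min against 0 min gave -0.002 in limma voom, -0.022 with total counts and -0.011 with no filter; at 30 min against 10 min 0.011 with total counts and 0.007 with no filter; and with the lone untreated library 0.071 at 30 min and 0.068 at 360 min. SESN2 at 10 min against 0 min gave -0.02 with total counts, -0.009 with no filter and -0.002 with the mitochondrial covariate. AKT1S1 gave -0.002 with that covariate and -0.045 with the lone untreated library at 10 min, and -0.028 with that library at 30 min. DEPTOR gave -0.031 at 360 min and TSC2 -0.037 at 10 min with the lone untreated library. TSC2 at 360 min against 0 min gave 0.002 in limma voom and 0.001 with the covariate. RHEB at 30 min against 0 min gave 0.005 with no filter and 0.00 with the covariate. With 1 library left out, the values against 0 min ran from -0.025 to 0.023 (SESN2), -0.21 to 0.074 (DEPTOR), -0.052 to 0.038 (RPTOR), -0.023 to 0.008 (TSC1) and -0.008 to 0.069 (TSC2) at 10 min, -0.008 to 0.003 (RHEB) and -0.045 to 0.026 (RPTOR) at 30 min, and -0.027 to 0.029 (TSC2), -0.051 to 0.026 (RPTOR) and -0.024 to 0.177 (DEPTOR) at 360 min. They ran from -0.015 to 0.067 (AKT1S1) and -0.047 to 0.044 (RPTOR) at 30 min against 10 min, and from -0.02 to 0.024 (RPTOR) at 360 min against 30 min. Low counts limit what can be said of DEPTOR and SESN3, and SESN3 could not be tested.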

Other observations

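Some genes ran opposite to DDIT4 over the 12 libraries. Chosen after the values were seen, the 3 with the lowest Pearson's r were AL161891.1 (-0.977), SP5, a transcription factor of Wnt signalling (-0.967), and SLC30A1, a zinc exporter (-0.964). SLC30A1 averaged 57.7 CPM at 30 min and 34.3 at 360 min, against 42.2 at 0 min, and SP5 averaged 97.9 at 30 min and 75.6 at 360 min, against 82.7 at 0 min. These values are descriptions with no test.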
